A study of Mus musculus with 2 samples.

Results

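The genes described here are 10 that make, break down, carry or sense retinoic acid: Aldh1a1, Aldh1a2, Aldh1a3, Cyp26a1, Cyp26b1, Rara, Rarb, Rarg, Crabp1 and Crabp2. They were chosen by gene name, and every probe that the array files assign to them was taken, which gave 12 of the 39429 probes on the array. Rara and Rarb have 2 probes each and the other genes have 1. After a filter on dim probes, 9 of the 10 genes remained among the 20989 features tested.

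RNA came from ureters dissected at E18.5 from NMRI mouse embryos, and was compared on 2 two-colour arrays. The Rbpj-cKO embryos carried the genotype Tbx18(cre/+);Rbpj(fl/fl), in which cre made from the Tbx18 locus, active in the mesenchyme around the ureter, acts on floxed alleles of Rbpj, the DNA-binding partner of the Notch receptors. The controls were Rbpj(fl/?), with at least 1 floxed allele and no cre in their label. One array set male Rbpj-cKO RNA (red dye, AlexaFluor647) against male control RNA (green dye, AlexaFluor555), and the other set female Rbpj-cKO RNA (green) against female control RNA (red), so sex and dye cannot be told apart. The labels do not say whether embryos were pooled, so the p-values measure no spread beyond that between these arrays. The variance behind them is mostly pooled over all features (10.3 prior against 1 residual degree of freedom). They therefore say little of a gene's own spread between the arrays. All ratios are log2 of Rbpj-cKO over control, after background correction and loess normalisation.

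Retinoic acid is made from vitamin A in a pair of oxidation steps, and the second is done by the retinaldehyde dehydrogenases of the Aldh1a family. It is broken down by the Cyp26 enzymes, bound in the cytoplasm by the Crabp proteins, and sensed in the nucleus by the receptors Rara, Rarb and Rarg, which bind DNA together with the Rxr receptors. In the developing ureter Aldh1a2 is known from the mesenchyme and Aldh1a3 from the epithelium. The pathway acts on its own parts, since Rarb and Cyp26a1 are classical targets of the receptors.

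Both of these genes hold a match to the receptors' binding element just upstream of their start. The stretches below are shown because Rarb and Cyp26a1 were the only members in the promoter table with such a match, which is in capitals. They are the 110 bases before the annotated start, from the RefSeq promoter table (GRCm38.p6), read 5′ to 3′ on the gene's strand. Rarb lies on the minus strand at chr14:16575477-16575586 and Cyp26a1 on the plus strand at chr19:37697698-37697807.
Rarb: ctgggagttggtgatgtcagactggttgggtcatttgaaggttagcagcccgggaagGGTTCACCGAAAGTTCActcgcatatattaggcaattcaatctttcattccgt
Cyp26a1: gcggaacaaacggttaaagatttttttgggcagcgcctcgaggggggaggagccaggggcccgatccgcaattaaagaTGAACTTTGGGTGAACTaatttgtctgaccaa

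The element was searched on both strands as a direct repeat of AGGTCA or of its variant AGTTCA, its variant GGGTCA or its variant GGTTCA, in any pairing, with a spacer of 5 bases. In Rarb it runs from 53 to 37 bases before the start. In Cyp26a1 it runs from 32 to 16 bases before the start on the opposite strand, where it reads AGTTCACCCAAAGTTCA. Of the 8 members with an entry in the promoter table (13 windows, each from 250 bases before to 50 after a start), these 2 held such a repeat. It was found in 31 of the 27025 genes in the table (0.115%), these 2 among them, and in 0.0974% of its 32851 windows. The variants searched include AGTTCA and GGTTCA, which make up the repeats of Rarb and Cyp26a1, and both genes were known targets before the search. The counts therefore cannot show an excess among the members and are given as a description. Repeats with a spacer of 1 or 2 bases were found in 0 of the 8 members, and in 0.263% and 0.311% of the genes in the table.

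The median signal was between 6.38 and 13.3 times the median background over the 4 channels, and no member spot was saturated. All 20 urothelial and all 13 smooth muscle markers were well above background in every channel. The smooth muscle list had a median of -0.35, with 2 of 13 genes (Ckm and Pcp4) lower past the test, where 0.129% of all features passed. The other genes of the list, among them Acta2 and Myh11, did not pass. The list was chosen with earlier results of these data known, so its count is a description and no independent support. Rbpj, the targeted gene, had -1.58 and -0.93 (mean -1.25; limma adjusted p = 0.0760), and whether its probe lies in the deleted part was not analysed here, so it does not check the labels. The number of arrays limits the precision: the SE of a member's mean was 0.19 to 0.26.

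Across the pathway no member changed past the test. Of the 9 genes tested, 0 passed limma at an adjusted p of 0.05, where 0.129% of all features did (27 of 20989). At an unadjusted limma p of 0.05, 2 of the 9 passed, Aldh1a3 (higher) and Crabp1 (lower), against 3.37% of all features. Under most of the other processing choices this count fell to 1 or 0, as given at the end. The limma adjusted p was 1 for every one of the 9 genes. Mean ratios ran from -0.44 for Crabp1 to 0.59 for Aldh1a3, with a median of 0.20 where the median of all features was 0.01.

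**Figure D1:**
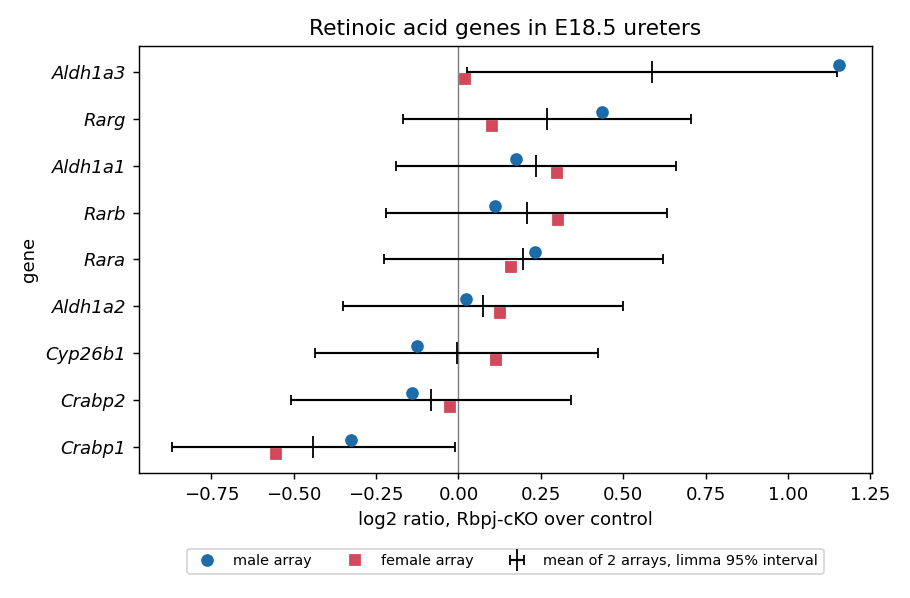
Log2 ratio of Rbpj-cKO over control for the 9 measured retinoic acid genes, ordered by mean. Blue circles are the male and red squares the female array, and black bars are the mean of both with its limma 95% interval. With the main processing the intervals of Aldh1a3 and Crabp1 leave out 0, and Aldh1a3 has the widest gap between the arrays (1.15 and 0.02).

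Direction was shared between the arrays for most members. A ratio above 0 on both arrays was found for 6 of 9 genes, against 21.7% of all features, and a ratio below 0 on both for 2 of 9, against 19.7%. Among the 6, Aldh1a2 had only 0.02 on the male array and Aldh1a3 only 0.02 on the female array. Rara had -0.03 on the female array at its second probe. Cyp26b1 had opposite signs. A change of at least 1.5-fold in one direction on both arrays was found for 0 of the 9 genes, against 0.638% of all features. Over all features the ratios of the arrays had a correlation of -0.18, a description over features that share RNA and dye within an array. No test was made of these counts.

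**Figure D2:**
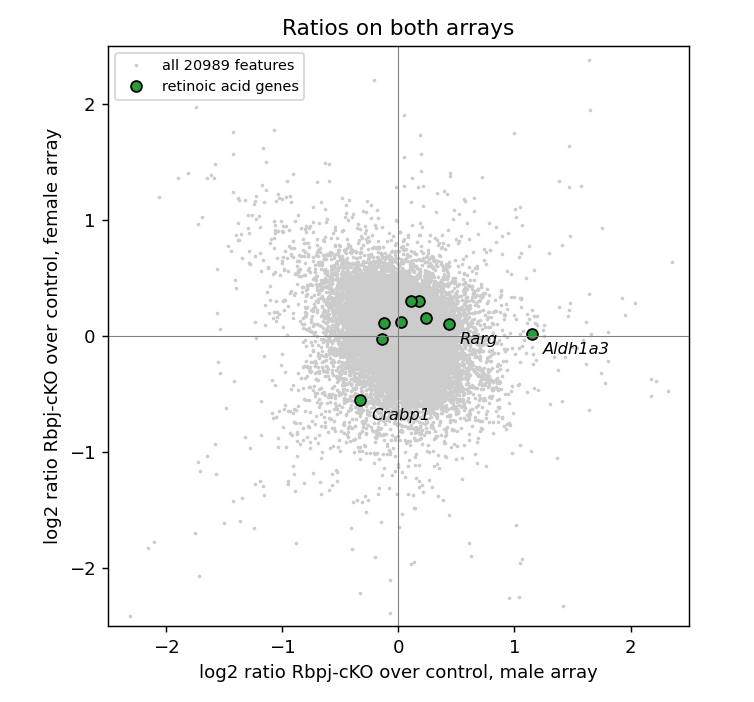
Log2 ratio of Rbpj-cKO over control on the male array (horizontal axis) and the female array (vertical axis). Grey points are all 20989 features (11 lie outside the plotted range of 2.5 in either direction) and green points are the 9 measured retinoic acid genes. Crabp1 lies in the lower left, and Aldh1a3 lies far to the right with a female ratio of 0.02.

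Among the synthesis enzymes, Aldh1a3 had the largest mean ratio, set by the male array. Its normalised log2 intensity was 10.03 in the male control and 11.18 in male Rbpj-cKO, and 10.68 in the female control and 10.698 in female Rbpj-cKO. The male control was thus the low channel, and the other 3 lay within about 0.5 of each other; both Rbpj-cKO levels stood above both control levels, by 0.02 on the female array. The ratios were 1.15 and 0.02 (mean 0.59, SD 0.80, n = 2), a 1.5-fold higher mean level with a 95% interval of 0.03 to 1.15 on the log2 scale (limma adjusted p = 1). A gap between the arrays at least as wide was found for 2.9% of all features. For scale, 312 probes printed as 10 spots and well above background had a median SD between spots of 0.05 (male array) and 0.15 (female array). The Aldh1a3 probe is a single spot, on chromosome 7 at 73535785 to 73535844 of the minus strand (mm9, per the array files).

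Markers of 2 tissues that can hold Aldh1a transcripts were set beside it. The 20 urothelial markers had a median of 0.16 (male array) and 0.26 (female array), with 15 higher on both and 0 lower on both. Of all features, 21.7% were higher and 19.7% lower on both. Their summed level on the log2 scale was 20.23 and 20.28 in the control channels and 20.48 and 20.53 in the Rbpj-cKO channels. The 11 mesothelial markers tested, of 12 on the array, had a median of 1.01 (male array) and -0.21 (female array), with a summed level of 17.46 and 17.33 in controls and 17.65 and 17.76 in Rbpj-cKO. The mesothelial list shares Krt19 and Upk3b with the urothelial one, and on the female array its sum was higher in Rbpj-cKO while its median ratio was below 0, so the sum does not speak for mesothelium alone. The part of either in the Aldh1a3 values was not tested. In whole ureters a change in the number of cells of a type and a change of RNA per cell cannot be told apart.

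The other dehydrogenases had smaller ratios. Aldh1a1 had levels of 12.01 (control) and 12.18 (Rbpj-cKO) on the male array and of 12.19 and 12.49 on the female array. The female Rbpj-cKO channel was the highest, and the groups overlapped by a small margin. Its mean ratio was 0.24 (SD 0.09, n = 2; 95% interval -0.19 to 0.66), 1.18-fold. Aldh1a2, the main mesenchymal enzyme, had 13.99 and 14.02 in males and 13.95 and 14.07 in females. The 4 channels of Aldh1a2 lay close together, with a mean ratio of 0.07 (SD 0.07; 95% interval -0.35 to 0.50).

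Of the breakdown enzymes, Cyp26b1 was measured and Cyp26a1 was not. Cyp26b1 had levels of 9.62 (control) and 9.49 (Rbpj-cKO) in males and 9.45 and 9.56 in females. The groups overlapped and the mean ratio was -0.01 (SD 0.17, n = 2; 95% interval -0.44 to 0.42), which turned to 0.04 with median centring in place of loess. The Cyp26a1 probe was not well above background in any of the 4 channels. Its mean signal was 60.4 in the male control over a local background of 32, 142 in male Rbpj-cKO over 81, 121 in the female control over 96, and 47.9 in female Rbpj-cKO over 31. No fold is given for Cyp26a1, since both groups have only a bound. Its transcript was thus not detectable with this probe.

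The array reads Cyp26a1 and Crabp1 through the following 60-base probes, shown because they stand behind the value that could not be measured and behind the lowest ratio. The Cyp26a1 probe lies on chromosome 19 at 37775566 to 37775625 and the Crabp1 probe on chromosome 9 at 54616192 to 54616251, both on the plus strand of mm9.
Cyp26a1: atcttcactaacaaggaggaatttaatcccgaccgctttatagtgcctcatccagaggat
Crabp1: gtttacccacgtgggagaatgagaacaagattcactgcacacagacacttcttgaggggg

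The longest run of bases that the Crabp1 probe shares with a probe of a gene outside the list is 14, and that of the Cyp26a1 probe is 13. Over all 12 member probes the longest such run was 16 bases. Of the 12 probes, 4 hold the polyadenylation signal AATAAA (Aldh1a3, Rarg, and 1 each of Rara and Rarb). Whether a probe lies in an exon common to all isoforms was not analysed here.

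Crabp1, the more restricted of the cytoplasmic binding proteins, was the lowest member. Its levels were 14.51 (control) and 14.18 (Rbpj-cKO) in males and 14.72 and 14.17 in females. Both Rbpj-cKO channels were low and nearly equal, and both lay below both controls. The ratios were -0.33 and -0.55 (mean -0.44, SD 0.16, n = 2), a 1.36-fold lower level with a 95% interval of -0.87 to -0.01 (limma adjusted p = 1). Crabp1 was the only member of the 9 with both Rbpj-cKO levels below both controls, a pattern of 12.5% of all features. Crabp1 is also known from neural crest derivatives; 13 nerve and glial markers tested, of 14 on the array, had a median of 0.13 (male array) and -0.25 (female array), with summed log2 levels of 14.74 and 15.63 in controls and 14.64 and 14.90 in Rbpj-cKO. The smooth muscle list had medians of -0.56 (male array) and -0.42 (female array), with 10 of 13 genes lower and 1 higher on both. The ureteric mesenchyme and fibroblast markers (12 tested) had medians of -0.01 and -0.07, with 3 lower and 2 higher on both. Of all features, 19.7% were lower and 21.7% higher on both. The part of any of these lists in the Crabp1 value was not tested.

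Crabp2, which hands retinoic acid to the receptors in the nucleus, had levels of 14.69 and 14.55 on the male array and 14.74 and 14.72 on the female array, control first. The groups overlapped. Its mean ratio was -0.08 (SD 0.08, n = 2; 95% interval -0.51 to 0.34).

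The receptors Rara, Rarb and Rarg each had a mean ratio above 0, between 0.20 and 0.27, with intervals that span 0. Rarg had levels of 13.92 (control) and 14.36 (Rbpj-cKO) in males and 14.14 and 14.24 in females, and a mean ratio of 0.27 (SD 0.24, n = 2; 95% interval -0.17 to 0.70). Rara had 13.19 and 13.42 in males and 13.17 and 13.33 in females, read at the brighter of its probes, and a mean of 0.20 (SD 0.05; 95% interval -0.23 to 0.62). For both of these genes the Rbpj-cKO levels stood above both controls. The second Rara probe gave 0.39 (male array) and -0.03 (female array), so the sign of the female ratio depended on the probe.

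Rarb, the receptor whose promoter is printed above, was read by 2 probes. The brighter one had levels of 14.02 (control) and 14.13 (Rbpj-cKO) on the male array and of 14.15 and 14.45 on the female array. The groups overlapped, the female Rbpj-cKO channel was the highest, and the mean ratio was 0.21 (SD 0.13, n = 2; 95% interval -0.22 to 0.63), a 1.15-fold higher mean level. The second Rarb probe gave 0.11 and 0.07 (mean 0.09, SD 0.03). Both probes thus had ratios above 0 on both arrays, and neither passed the test.

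**Figure D3:**
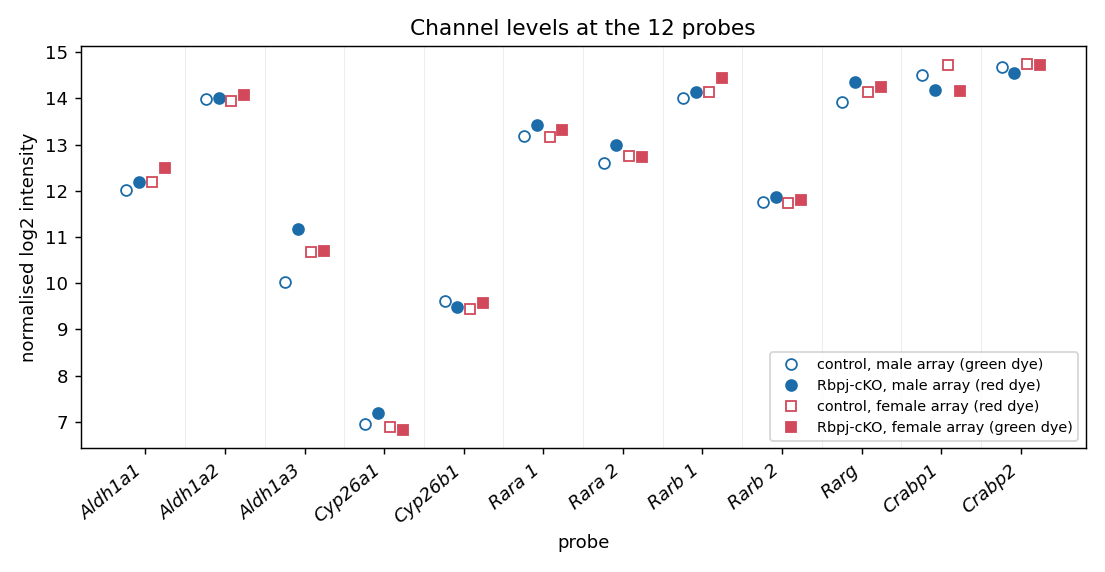
Normalised log2 intensity (vertical axis) in the 4 channels of the 12 probes (horizontal axis, with the probes of Rara and Rarb numbered). Open symbols are controls and filled symbols Rbpj-cKO, blue circles the male and red squares the female array. The male control of Aldh1a3 (10.03) and both Rbpj-cKO levels of Crabp1 (14.18 and 14.17) stand apart, and Cyp26a1 lies at the background; levels are comparable within a probe and not between probes.

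Counted by level, 4 of the 9 genes (Aldh1a2, Aldh1a3, Rara and Rarg) had both Rbpj-cKO channels above both controls, a pattern that 14.9% of all features showed. The margin was 0.02 for Aldh1a2 (male array) and 0.02 for Aldh1a3 (female array). Both margins are under the median SD between spots of those arrays (0.05 and 0.15). At the second Rara probe the female Rbpj-cKO level (12.73) was below the female control (12.76). The other 4 genes apart from Crabp1 (Aldh1a1, Rarb, Cyp26b1 and Crabp2) overlapped. The order of the members by ratio was Aldh1a3, Rarg, Aldh1a1, Rarb, Rara, Aldh1a2, Cyp26b1, Crabp2 and Crabp1. The 95% interval of each gene overlaps that of its neighbours in this order; of all pairs, those of Aldh1a3 and Crabp1 alone do not overlap.

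In the wider pathway no gene changed past the test either. Of 87 further genes of retinoid metabolism, transport, nuclear partners and known targets on the array, 73 were tested and 0 passed limma over all features; at an unadjusted p of 0.05, 4 did (Isl1, Egr1 and, named after their values were seen, Cebpe and Rarres2), where 3.37% of all features did. Of the 73 genes, 26 were higher and 13 lower on both arrays, where 21.7% and 19.7% of all features were, and their median was 0.08.

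Enzymes of the first oxidation step and related dehydrogenases (15 genes tested) had a median of 0.05. Rdh10, the main embryonic retinol dehydrogenase, had -0.07 (male array) and -0.46 (female array) with a mean of -0.27 (SE 0.20), the lowest of this list with one sign on both arrays. Dhrs3, which reduces retinaldehyde back to retinol, had 0.16 and 0.12, and the alcohol dehydrogenase Adh1 was the highest with one sign on both arrays (0.35 and 0.01). Of the other cytochrome P450 genes listed under breakdown, Cyp26c1 did not pass the filter on dim probes. Cyp2s1 had 0.35 and 0.39 and Cyp1b1 had 0.44 and 0.01. The remaining gene of this list of 3, Cyp3a11 (named after its values were seen), had the highest mean (0.40) with opposite signs on the arrays (-0.14 and 0.94). The list had a median of 0.37. These genes are not specific to the breakdown of retinoic acid, least of all Cyp1b1, so this median does not describe breakdown.

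Among the 11 genes of retinol uptake, storage and transport the median was -0.01. The retinol receptor Stra6 had 0.31 and 0.27 (mean 0.29, SE 0.19), and the cellular retinol-binding gene Rbp7 had -0.12 and -0.60 (mean -0.36), the highest and lowest of the list with one sign on both arrays. Rbp4, the carrier in blood, had 0.15 and -0.02.

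The heterodimer partners of the receptors lay near 0. Rxra had 0.08 and -0.13 (mean -0.02), Rxrb had 0.24 and -0.06 (mean 0.09), and Rxrg had 0.12 and -0.15 (mean -0.02), each with opposite signs on the arrays. The means of Rxra and Rxrg changed sign under some of the other processing choices. Nrip1, a corepressor that retinoic acid induces, was the highest of the 18 nuclear partners with 0.21 and 0.65 (mean 0.43, 1.35-fold, SE 0.20), and had 0.08 when all probes of the gene were averaged. The coactivator Ep300 had 0.13 and 0.02. The list had a median of 0.08.

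Genes known to respond to retinoic acid (26 tested of 33 on the array) had a median of 0.08, with 11 higher and 5 lower on both arrays. The LIM homeodomain gene Isl1 was highest with 0.71 and 0.36 (mean 0.53, SE 0.20), and the immediate early gene Egr1 lowest with -0.75 and -0.30 (mean -0.53, SE 0.20). Both had a limma adjusted p of 1. Genes whose promoter window holds the same repeat with a spacer of 5 bases formed a list set by sequence alone: 13 were on the array, 7 were tested, 0 passed (1 at an unadjusted p of 0.05, Syndig1, named after its value was seen), and their median was -0.08, with 1 higher (Rarb itself) and 3 lower on both arrays. Of all features, 0.129% passed and 3.37% had an unadjusted limma p under 0.05. On both arrays 21.7% of all features were higher and 19.7% lower.

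**Figure D4:**
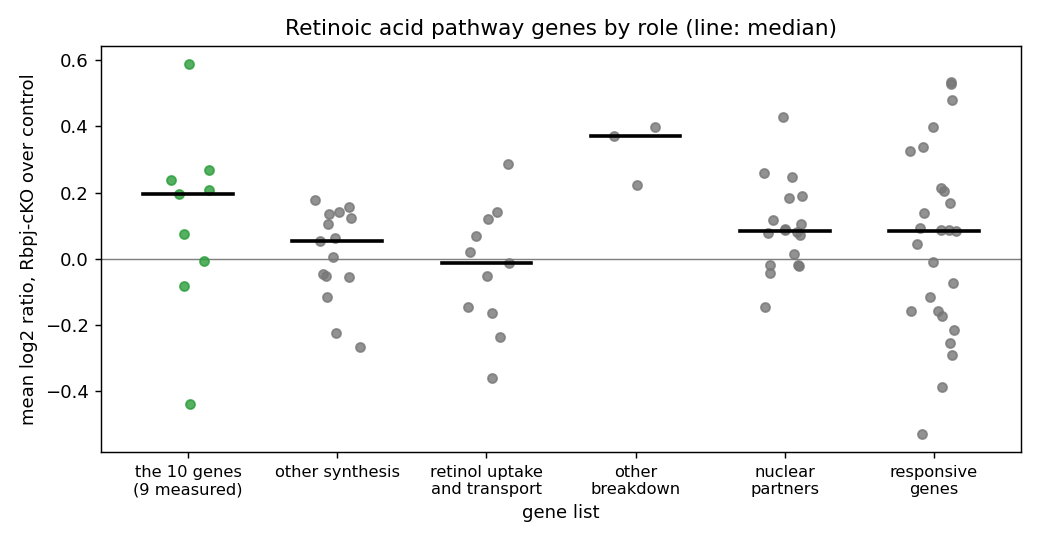
Mean log2 ratio of Rbpj-cKO over control (vertical axis) for the measured members (green) and the further pathway genes (grey) by role. Each point is a gene and each black line the median of its list. Medians lie between -0.01 for retinol uptake and transport and 0.37 for the 3 cytochrome P450 genes plotted as other breakdown.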

How the data were processed

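Scanner files were made with Agilent Feature Extraction 10.7.3.1 (submitters' processing notes). Each deposited mean or background signal is an un-normalized intensity of a spot. Per the file headers, the processed signals are background-subtracted and dye-normalized, and LogRatio is their log10. The deposited series table holds a score per probe: compared with the processed signals, it is a signed fold with signals under 15.79 (male) and 13.77 (female) raised to that floor, which matched 100% of 39030 single-spot probes within 0.001 on the log2 scale.

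Mean signals were corrected by normexp (offset 50, limma 3.58.1, R 4.3.3) and normalised by loess with control spots at weight 0. Outlier spots (200 and 274) were left out. Probes well above background on both arrays in 1 condition were kept, 26412 of 39429 probes took their name from RefSeq (GRCm38.p6), and the brightest probe stood for a gene. Levels add Aquantile scaling between arrays. Ratios were tested with lmFit and eBayes (10.3 prior and 1 residual degree of freedom); p-values are two-sided and were adjusted by Benjamini-Hochberg across the 20989 features. The fit was also run on simulated ratios with independent arrays and the same spread for every feature. That run checked only that mean estimates came back close to known changes, which were larger than those of the members. It therefore does not check the p-values of these data. The members and lists were chosen with earlier results of these data known. Further pathway genes are named when highest or lowest in their list with one sign on both arrays, or as fixed partners, of which 1 is not reported here. The alternatives changed normalization, background, starting signals, filter, choice of probe and prior variance.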

Additional observations from a re-analysis of the deposited data

Results flagged for a closer look

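Some values had opposite signs on the male and the female array, which also differ in dye orientation; with 1 array per sex the difference was not tested. As female minus male log2 ratios, Cyp26b1 differed by 0.24, Cyp3a11 by 1.08, Rbp4 by -0.17, Rxra by -0.21, Rxrb by -0.30 and Rxrg by -0.27. Among list medians, the further synthesis genes differed by -0.17, mesothelial markers by -1.22, kidney markers by 0.0666, nerve and glial markers by -0.38, endothelial markers by -0.31 and erythroid markers by 0.69. Over all features, 58.6% had opposite signs.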

How the results depend on the processing

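Under all 10 alternatives 0 of the members passed, and the lowest limma adjusted p of any member was 0.838 (Aldh1a3, with no background correction). Aldh1a1, Aldh1a2, Aldh1a3, Rara, Rarb, Rarg, Crabp1 and Crabp2 kept their direction in each; Aldh1a3 ranged from 0.59 to 0.66 and Crabp1 from -0.44 to -0.39. The count of members at an unadjusted limma p of 0.05, 2 with the main processing, was 0 with median centring, the processed signals or the series table. It was 1 with no background correction, an offset of 16, no filter on dim probes or averaged probes. With the remaining alternatives it was 2. Cyp26b1 turned to 0.0358 with median centring. Rxra turned to 0.0057 with median centring, to 0.0198 with the processed signals or the series table and to 0.0202 when probes were averaged, and Rxrg to 0.0383 with median centring and 0.0402 with the processed signals or the series table. The count of features past the test, 27, was 0 with median centring (226 at an unadjusted p of 0.05), 0 with the processed signals (837), 0 with the series table (818), 0 without a filter on dim probes (979), 10 when probes were averaged, 75 with no background correction, 42 with every probe tested on its own and 41 with an intensity trend. The cause was not tested. Median centring left the median of all features at 0.17 (male array) and -0.09 (female array), the other settings within 0.02 of 0. Leaving out 1 array leaves a single ratio with no test, given for each array in the text. Each array is itself a matched pair of Rbpj-cKO and control, so the reported fit on the ratios within arrays is the paired analysis. Signals near background limit Cyp26a1 alone among the members.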
